A study of Arabidopsis thaliana with 24 samples.

Results

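A total of 153 loci of Arabidopsis thaliana formed a transient peak in the total RNA of developing seeds at 15 days after pollination (DAP). The members were chosen by these array values themselves. A locus was counted when its mean log2 level over the 3 total RNA arrays of 15 DAP was at least 6, at least 1 above the 12 DAP mean and at least 1 above the 20 DAP mean. These loci were 0.552% of the 27720 loci outside the organelle genomes, in a table of 27827 loci. The log2 levels are array signals normalized by the authors. They rank the stages of a locus, while signals of different loci cannot be compared as amounts. The seeds came from the accession Col-0, and the labels name no mutation, transgene or treatment in any group. Total RNA and polysomal RNA were each measured at 12, 15, 18 and 20 DAP with 3 biological replicates, which gave 8 groups and 24 arrays. A replicate pooled several plants of a blocked planting, and the seeds were taken whole, with embryo, endosperm and seed coat together. In such bulk seeds, fewer cells of a type and less RNA per cell cannot be told apart. The labels do not say whether the total and the polysomal RNA of a stage came from the same seeds, so the fractions may not be independent of each other.

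During maturation the seed stops growing by division, fills with storage protein and oil, loses its chlorophyll and becomes able to survive drying. Abscisic acid signalling and dormancy genes act in this period, and the storage proteins draw on the supply of nitrogen, sulfur and metals. Polysomes are transcripts that carry several ribosomes, and RNA taken from them samples the transcripts in translation. A list of 13 seed storage protein loci averaged 10.2 to 11.5 on every array. A list of 5 loci of the silique valve, the wall of the fruit, averaged 3.76 to 5.48 on the arrays of 12 DAP and 1.88 to 3.01 on the later ones.

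RefSeq's TAIR10.1 gene table held 152 of the 153 members, of which 151 were protein coding, and AT1G76878 was a long non-coding RNA. The symbol differed from the locus name in 66. AT5G01710 and AT5G01712 had identical values on all arrays, so that 152 sets of values were distinct. The members lay on all 5 nuclear chromosomes, with 48 on chromosome 1 and 16 on chromosome 2. Those are 31.6% and 10.5% of the members, where these chromosomes held 26.1% and 15.9% of all nuclear loci. Apart from AT5G01710 and AT5G01712, whose locus numbers are also close, 5 pairs of members lay within 3 loci of each other. They were AT1G15940 with NRAMP6, AT1G62610 with AT1G62620, MSRB4 with MSRB6, BGLU3 with SCRL26, and AT5G03610 with AT5G03640. Whether probes of such neighbours share signal was not tested.

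The arrays taken at 12 DAP, 6 in all, had noisier replicates than the 18 later ones. Their levels had an SD over loci of 1.39 to 1.71, against 2.13 to 2.43 later, and their replicates correlated at 0.739 to 0.851 over loci, against 0.955 to 0.990. At 12 DAP the members' replicates had a median SD of 0.613 (total RNA) and 0.633 (polysomal RNA), compared with 0.147 to 0.256 from 15 DAP on. A difference between 12 and 15 DAP therefore rests on noisier arrays than one between 15 and 20 DAP, and it also depends on how the arrays are scaled to one another. The deposited table gives no detection calls, so a low log2 level cannot be told from background.

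The peak in total RNA is what chose the members, and its values are given as a description. The median member was 2.29 log2 units higher at 15 than at 12 DAP, with a range of 1.01 to 5.54, and its change from 15 to 20 DAP was -1.31, with a range of -5.02 to -1.0. The margin, which is the smaller of those differences, had a median of 1.26, and it was at least 2 in 18 members and at least 1.5 in 45. Among the 6310 loci that reached the level of 6, a step of at least 1 up from 12 to 15 DAP was common, in 4413 loci (69.9%). A step of at least 1 down from 15 to 20 DAP was found in 348 loci (5.52%). All 3 arrays of 15 DAP lay above all 6 arrays of 12 and 20 DAP in 149 members. That order is close to what the rule asks for, and its share over all loci is not given here.

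Most of the descent had taken place by 18 DAP, a stage that the rule did not use but that is set here against the chosen 15 DAP arrays. The mean was lower at 18 than at 15 DAP in all 153 members, with a median of -1.24, and the change was -1 or lower in 107. In 148 members all 18 DAP arrays lay below all 15 DAP arrays, which the rule had chosen as high. The share of all loci with that order is not given here either. Levels then stayed close, with 18 and 20 DAP within 0.5 of each other in 130 members, lower by more than 0.5 at 20 DAP in 19 and higher by more than 0.5 in 4, which were ATSDI1, CWLP, SKS6 and AT3G60290. The median member stood 0.69 above its 12 DAP level at 20 DAP. By then 59 members were at least 1 above their 12 DAP level, 81 were within 1 of it, and 13 were at least 1 below it.

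**Figure D1:**
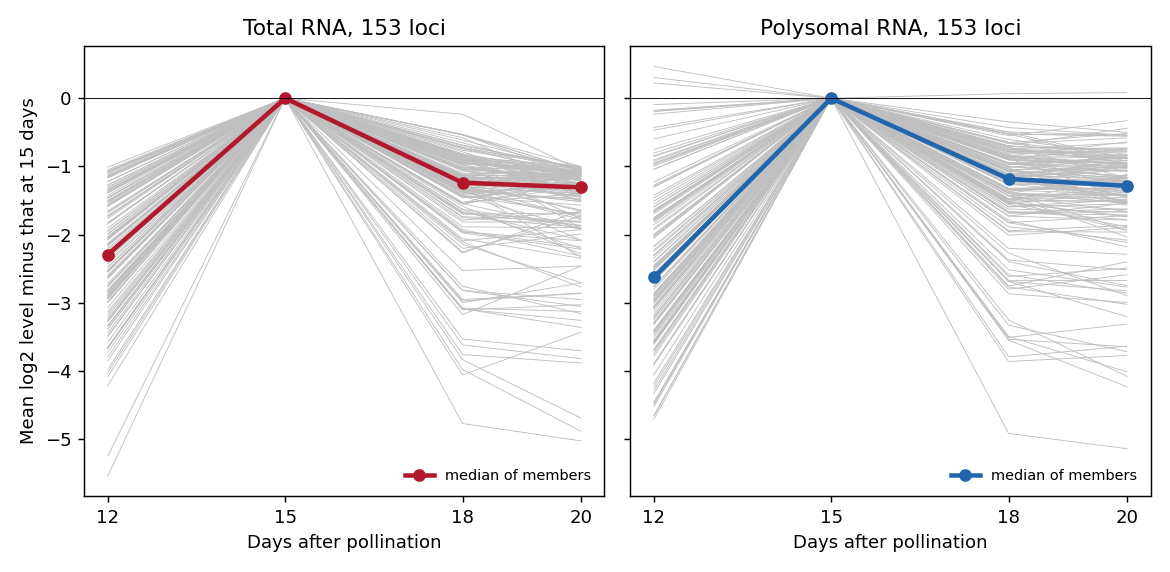
Mean log2 level of each of the 153 members minus its own mean at 15 DAP (vertical axis) against days after pollination, in total RNA (left) and polysomal RNA (right). Grey lines are loci, and the coloured line joins the median of the members, at -2.29, 0, -1.24 and -1.31 in total RNA and at -2.63, 0, -1.18 and -1.29 in polysomal RNA.

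The polysomal arrays took no part in the rule. The members were lower there too after 15 DAP, as differences ± SE from limma with 3 arrays per group and p-values adjusted over 27827 loci. From 15 to 20 DAP, 139 of the 153 members (90.8%) fell with an adjusted p under 0.05, where 5.4% of all loci and 13% of the 6310 loci at or above the level of 6 did. The median change was -1.29 in the members, -0.01 over all loci and -0.02 over those bright loci, and none of the members rose, at an unadjusted p under 0.05 either, where 7.18% of all loci rose. From 15 to 18 DAP, 137 members (89.5%) fell, against 5.08% of all loci and 12.3% of the bright loci, with a median of -1.18 in the members. The count of falls to 20 DAP was 144, 148 and 140 when the arrays were quantile normalized again, scaled by cyclic loess or centred on their medians. With the 12 DAP arrays added to the fit, and so to the estimate of the spread, 88 members passed from 15 to 20 DAP and 76 from 15 to 18 DAP.

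The ascent on polysomes was common among loci of like level. From 12 to 15 DAP, 137 members (89.5%) rose, where 29.4% of all loci and 81% of the bright loci did. None of the members fell, at an unadjusted p under 0.05 either, where 39.4% of all loci and 2.9% of the bright loci fell. The median rise was 2.63 in the members, against 2.10 in the bright loci and -0.51 over all loci. Repeated quantile normalization moved the median of all loci to -0.07 and left 60 members (39.2%) higher and 3 (1.96%) lower, against 26% of the bright loci higher and 6.01% lower. Cyclic loess moved it to -0.01 and left 61 members (39.9%) higher and 11 (7.19%) lower, against 15.8% of the bright loci higher and 16.2% lower. The mean was below that of 12 DAP in 3 members with the deposited values, in 23 after quantile normalization and in 30 after cyclic loess.

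A total of 124 members passed both polysomal steps, rising from 12 to 15 DAP and falling from 15 to 20 DAP, where 883 loci (3.17%) did so in the whole table. When the 3 limits of the rule were applied to the polysomal means, 196 loci met them, 0.707% of those outside the organelle genomes, and 92 of these were members. The 92 loci were 60.1% of the members and 46.9% of the polysomal peak loci. Of the other members, 38 missed the limit towards 20 DAP alone, 14 the limit towards 12 DAP alone and 6 both, and 3 were under the level of 6.

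**Figure D2:**
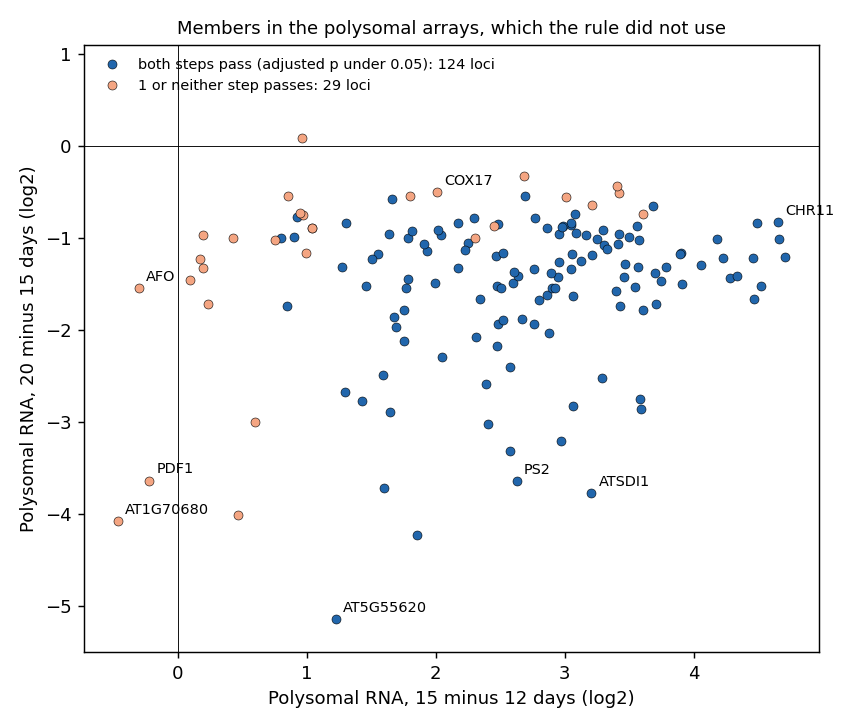
Difference in polysomal RNA from 12 to 15 DAP (horizontal axis, log2) against that from 15 to 20 DAP (vertical axis, log2), for each of the 153 members. Blue points are the 124 members with adjusted p under 0.05 in both steps and orange points the other 29, and nearly all points lie below 0 on the vertical axis, with AT5G55620 lowest at -5.14.

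A group of 8 members of nutrient and metal supply, put together after the values were seen, held PS2, NRAMP6, ATSDI1, LSU3, APS1, SHM7, NRT1.1 and PYE. The first 4 were among the 12 members with the largest margins. On polysomes 7 of the 8 rose from 12 to 15 DAP, and 8 of 8 fell from 15 to 20 DAP, with changes of -3.77 to -0.99, while 6 met the peak rule there. The share that rose, 87.5%, lay between the 81% of the bright loci and the 89.5% of all members. After quantile normalization 3 of the 8 rose, and after cyclic loess 4 rose and 1 fell. Their median step up of 3.02 became 1.93 and 1.45, with 2 of the 8 below 0 in each. The step down was called in 8 of 8 under each of these scalings, where 90.8% of all members and 13% of the bright loci fell on the deposited values.

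PS2, a pyrophosphate-specific phosphatase induced by phosphate starvation, had the largest margin of all members, 3.66. Its total RNA levels were 3.48, 4.27 and 4.14 at 12 DAP, 8.02, 7.63 and 7.24 at 15, 4.12, 4.04 and 3.88 at 18 and 3.58, 3.94 and 3.91 at 20. On polysomes PS2 read 4.98, 6.03 and 4.86 at 12 DAP, 7.87, 7.82 and 8.07 at 15, 4.22, 4.21 and 4.71 at 18 and 4.45, 4.0 and 4.38 at 20. In both fractions the 3 arrays of 15 DAP lay above all others, and the levels of 18 and 20 DAP lay close to each other. The polysomal rise was 2.63 ± 0.37 (adjusted p = 0.00038) and the fall to 20 DAP -3.64 ± 0.21 (adjusted p = 1.27e-08). Of 12 phosphate starvation loci listed after the values were seen, PS2 was the only member. On polysomes 4 of the 12 rose and 4 fell from 12 to 15 DAP, where 29.4% of all loci and 81% of the bright loci rose. The counts were 1 and 2 after quantile normalization and 2 and 2 after cyclic loess. From 15 to 20 DAP 2 of the 12 fell, where 5.4% of all loci and 13% of the bright loci did. These were PS2 and RNS1, a secreted ribonuclease, at -2.94 ± 0.27 (adjusted p = 3.3e-06). SPX1, a phosphate-sensing regulator, rose by 2.75 ± 0.35 (adjusted p = 0.000224), and its difference from 15 to 20 DAP was -0.40 ± 0.27 (adjusted p = 0.42).

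NRAMP6 encodes a metal transporter of intracellular membranes. Its total RNA levels were 5.23, 4.51 and 3.18 at 12 DAP, 8.13, 8.09 and 8.24 at 15, 5.26, 5.70 and 5.22 at 18 and 5.49, 4.88 and 4.62 at 20, and on polysomes 5.81, 6.57 and 4.84 at 12 DAP, 8.97, 8.67 and 8.50 at 15, 6.01, 5.96 and 6.11 at 18 and 5.41, 5.58 and 5.54 at 20. The 15 DAP arrays were again the highest in each fraction, and the 12 DAP arrays of total RNA ran from 3.18 to 5.23. The polysomal rise was 2.97 ± 0.44 (adjusted p = 0.00045) and the fall -3.20 ± 0.20 (adjusted p = 4.63e-08). PYE, a bHLH regulator of the iron deficiency response, had a margin of 1.06 in total RNA, and on polysomes rose by 3.74 ± 0.34 (adjusted p = 4.79e-05) and then fell by 1.47 ± 0.19 (adjusted p = 8.85e-05). NRT1.1, a nitrate transporter and sensor, had a margin of 1.04, and its polysomal fall was -0.99 ± 0.21 (adjusted p = 0.00527).

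Sulfur genes made up 4 of the group. ATSDI1 (sulfur deficiency induced 1) represses glucosinolate synthesis when sulfur is short. ATSDI1 levels in total RNA were 3.93, 4.70 and 5.17 at 12 DAP, 7.33, 7.52 and 7.42 at 15, 3.27, 3.43 and 3.40 at 18 and 4.02, 3.87 and 4.08 at 20, and on polysomes 6.04, 4.31 and 3.52 at 12 DAP, 7.72, 7.87 and 7.90 at 15, 3.88, 4.19 and 3.83 at 18 and 3.81, 3.94 and 4.42 at 20. No array of another stage reached those of 15 DAP in either fraction, and in total RNA the 20 DAP arrays all lay above the 18 DAP arrays. The polysomal rise was 3.20 ± 0.56 (adjusted p = 0.00104) and the fall -3.77 ± 0.16 (adjusted p = 5.72e-10). LSU3, of the family named for its response to low sulfur, read 7.01, 5.96 and 3.47 at 12 DAP, 8.0, 8.37 and 7.69 at 15, 5.34, 4.94 and 4.52 at 18 and 4.20, 4.99 and 4.78 at 20 in total RNA and 5.28, 4.80 and 4.32 at 12 DAP, 7.53, 8.26 and 7.81 at 15, 5.18, 5.15 and 5.22 at 18 and 4.96, 4.98 and 5.18 at 20 on polysomes. Its 12 DAP total RNA arrays ran from 3.47 to 7.01, the widest spread of any LSU3 group, yet all lay below the 15 DAP arrays. LSU3 rose by 3.07 ± 0.36 (adjusted p = 0.000149) on polysomes and then fell by 2.82 ± 0.25 (adjusted p = 2.15e-06).

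APS1, a plastid ATP sulfurylase that activates sulfate, was among the 8 members with the highest signal at 15 DAP. APS1 levels in total RNA were 8.36, 8.93 and 8.03 at 12 DAP, 9.83, 9.79 and 10.06 at 15, 8.82, 9.11 and 8.62 at 18 and 8.39, 8.48 and 8.34 at 20, and on polysomes 9.64, 9.89 and 9.71 at 12 DAP, 10.19, 10.15 and 10.19 at 15, 9.42, 9.29 and 8.94 at 18 and 9.24, 9.30 and 8.98 at 20. The 15 DAP arrays were highest in both fractions, but the polysomal step up was 0.43 ± 0.29 (adjusted p = 0.201), which did not pass, and it turned to -1.86 under cyclic loess. The later fall passed, at -1.0 ± 0.16 (adjusted p = 0.000698). APS1 did not meet the rule after quantile normalization or cyclic loess. SHM7, a member of the serine hydroxymethyltransferase family linked to sulfur metabolism, rose by 3.46 ± 0.41 (adjusted p = 0.000147) on polysomes and then fell by 1.43 ± 0.14 (adjusted p = 5.75e-06).

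A wider sulfur list of 19 loci was drawn up after the values were seen. The list includes the 4 members. On polysomes 9 of the 19 rose and 3 fell from 12 to 15 DAP, where 29.4% of all loci and 81% of the bright loci rose. After quantile normalization 3 rose and 1 fell, and after cyclic loess 3 rose and 2 fell. From 15 to 20 DAP 11 of the 19 fell, where 5.4% of all loci and 13% of the bright loci did. The 4 members are among these 11, and they were chosen for a fall over the same days in total RNA. The count is therefore not independent of the rule. None of the 19 rose after 15 DAP in limma's test, at an unadjusted p under 0.05 either. The list's median was 0.73 for the step up, and it became -0.12 after quantile normalization and 0.41 after cyclic loess. For the step down the median was -1.0, and it was -1.01, -0.98 and -1.05 under the 3 other scalings. APR2, an isoform of APS reductase, the enzyme that follows ATP sulfurylase, lay just outside the rule with a margin of 0.994. Its polysomal rise was 3.0 ± 0.42 (adjusted p = 0.000358) and its fall -1.01 ± 0.15 (adjusted p = 0.000405). LSU2 fell by 2.98 ± 0.37 (adjusted p = 5.83e-05) from 15 to 20 DAP. SULTR1;2, a high-affinity sulfate transporter, fell by 1.29 ± 0.29 (adjusted p = 0.00715). LSU1, SULTR1;1 and SULTR2;1 were the 3 that fell on polysomes between 12 and 15 DAP, with differences of -1.19 ± 0.37 (adjusted p = 0.0167), -1.69 ± 0.34 (adjusted p = 0.00202) and -2.24 ± 0.30 (adjusted p = 0.000275).

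**Figure D3:**
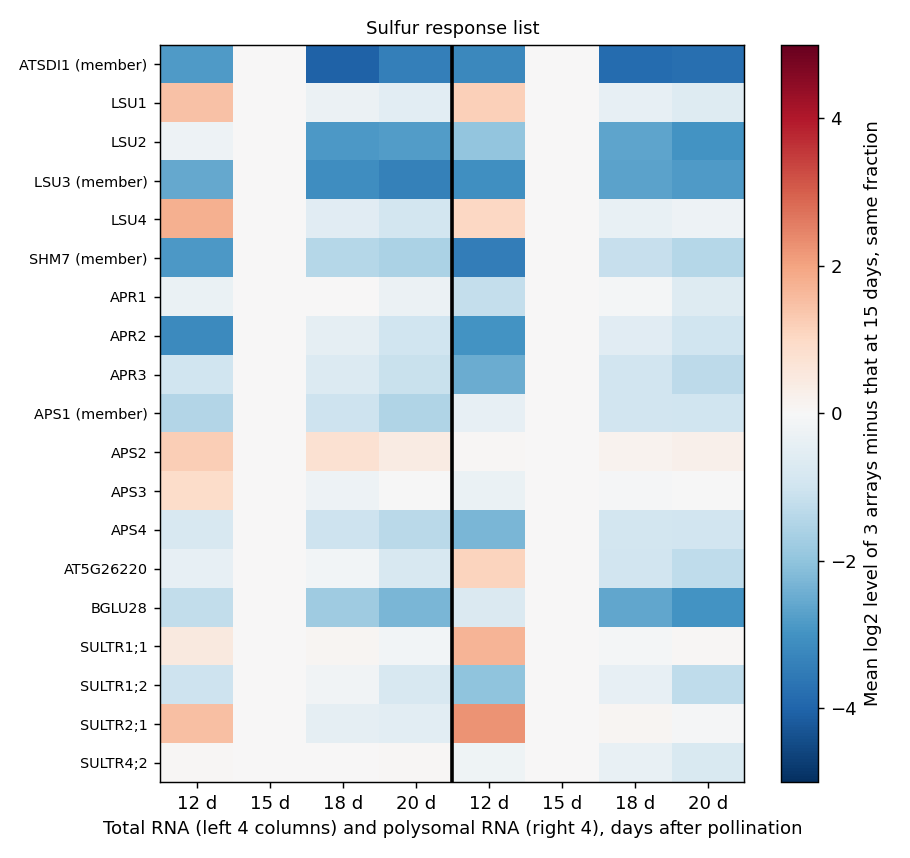
Mean log2 level of 3 arrays minus the mean at 15 DAP of the same fraction (colour, log2), for the 19 loci of the sulfur list in rows and the 4 stages in columns, total RNA left of the black line and polysomal RNA right of it. The members ATSDI1, LSU3 and SHM7 are blue on both sides of the white 15 DAP column, while LSU1, LSU4 and SULTR2;1 are red at 12 DAP. APS1, also a member, is nearly white at 12 DAP on polysomes, where its step up did not pass.

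Abscisic acid and dormancy genes formed a group of 3 members, DOG1, PYL13 and AFP1. On polysomes 3 of 3 rose from 12 to 15 DAP, 3 of 3 fell from 15 to 20 DAP, and 3 of 3 met the peak rule. Among all members 89.5% rose, 90.8% fell and 60.1% met that rule on polysomes. Of the bright loci 81% rose and 13% fell, and of all loci 29.4% and 5.4%. The rise was called in 2 of 3 after quantile normalization and after cyclic loess, with medians of 2.92 and 1.73 against 3.58 as deposited, and the fall was called in 3 of 3 under every scaling tried. DOG1, the regulator that sets the depth of seed dormancy, read 6.51, 5.68 and 5.27 at 12 DAP, 8.83, 8.84 and 8.63 at 15, 7.11, 6.91 and 7.07 at 18 and 6.71, 7.14 and 7.04 at 20 in total RNA. Polysomal DOG1 levels were 6.56, 7.55 and 6.13 at 12 DAP, 8.96, 9.20 and 9.12 at 15, 7.62, 7.33 and 7.29 at 18 and 7.48, 7.27 and 7.52 at 20. The arrays of 15 DAP were the highest in both fractions with a small spread, and the 18 and 20 DAP arrays overlapped each other. The polysomal rise was 2.34 ± 0.39 (adjusted p = 0.000891) and the fall -1.67 ± 0.15 (adjusted p = 2.86e-06).

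PYL13 belongs to the family of abscisic acid receptors. Its total RNA levels were 3.93, 3.16 and 3.71 at 12 DAP, 5.69, 6.17 and 6.23 at 15, 3.35, 2.87 and 2.55 at 18 and 2.87, 2.53 and 3.61 at 20, and on polysomes 2.55, 3.13 and 3.24 at 12 DAP, 6.44, 7.01 and 6.21 at 15, 3.88, 4.09 and 4.50 at 18 and 4.06, 3.40 and 3.97 at 20. The 15 DAP arrays stood clear of all others in each fraction, but the total RNA mean of 15 DAP, 6.03, was close to the level limit of the rule, and PYL13 did not meet the rule under every omission of a total RNA array. The polysomal rise was 3.58 ± 0.35 (adjusted p = 6.43e-05) and the fall -2.75 ± 0.30 (adjusted p = 1.8e-05). AFP1 binds the transcription factor ABI5 and dampens its action. AFP1 read 4.60, 4.08 and 6.27 at 12 DAP, 7.95, 7.97 and 7.98 at 15, 6.36, 6.06 and 6.12 at 18 and 5.91, 6.53 and 6.45 at 20 in total RNA and 4.19, 4.69 and 5.35 at 12 DAP, 8.06, 8.52 and 8.45 at 15, 6.77, 6.66 and 6.64 at 18 and 6.72, 6.40 and 6.58 at 20 on polysomes. In both fractions the 15 DAP arrays lay above all others, and those of 18 and 20 DAP overlapped. The polysomal rise of AFP1 was 3.60 ± 0.37 (adjusted p = 7.51e-05) and its fall -1.78 ± 0.18 (adjusted p = 6.31e-06). AFP2, its close relative, missed the rule with a margin of 0.997, and on polysomes it rose by 4.41 ± 0.33 (adjusted p = 2.13e-05) and fell by 1.39 ± 0.15 (adjusted p = 1.1e-05) afterwards.

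On a list of 18 abscisic acid receptors and AFP proteins chosen after the values were seen, PYL13 and AFP1 were the only members. On polysomes 10 of the 18 rose and 4 fell from 12 to 15 DAP, where 29.4% of all loci and 81% of the bright loci rose. The counts were 6 and 1 after quantile normalization and 5 and 3 after cyclic loess. From 15 to 20 DAP 1 rose and 5 fell, where 5.4% of all loci and 13% of the bright loci fell. The falls to 20 DAP were those of PYL12, PYL13, AFP1, AFP2 and TMAC2. PYL7 rose in that step, by 0.87 ± 0.18 (adjusted p = 0.00376), and the differences of PYL5 and PYL11 were 0.39 ± 0.20 (adjusted p = 0.252) and 0.03 ± 0.16 (adjusted p = 0.949).

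MSRB4 and MSRB6, which lie near each other on chromosome 4, encode methionine sulfoxide reductases, enzymes that repair oxidized methionine. MSRB4 read 6.33, 5.98 and 7.18 at 12 DAP, 9.66, 9.73 and 9.70 at 15, 7.69, 8.02 and 7.07 at 18 and 6.75, 6.98 and 7.05 at 20 in total RNA and 8.19, 8.47 and 8.07 at 12 DAP, 10.09, 9.85 and 9.74 at 15, 7.90, 7.64 and 7.32 at 18 and 6.96, 7.20 and 6.83 at 20 on polysomes. The 15 DAP arrays lay above all others in both fractions, and the 12 DAP polysomal arrays were higher than the 12 DAP total RNA arrays. MSRB4 rose on polysomes by 1.65 ± 0.30 (adjusted p = 0.00134) and fell by 2.89 ± 0.21 (adjusted p = 3.34e-07), and the rise turned to -0.58 under cyclic loess. MSRB6 levels were 5.94, 4.81 and 4.77 at 12 DAP, 7.37, 7.43 and 7.32 at 15, 5.12, 3.58 and 4.97 at 18 and 4.82, 3.95 and 4.51 at 20 in total RNA. On polysomes the MSRB6 rise was 1.60 ± 0.47 (adjusted p = 0.0133) and its fall -3.72 ± 0.34 (adjusted p = 2.68e-06), and neither rise was called after quantile normalization or cyclic loess. Of 14 methionine sulfoxide reductases listed after the values were seen, 8 rose and 4 fell on polysomes from 12 to 15 DAP, and 6 fell from 15 to 20 DAP. In these steps 29.4% of all loci and 81% of the bright loci rose, and 5.4% and 13% fell. The rises of the list were not called after quantile normalization, and 1 was after cyclic loess. PMSR3, of the other class of the enzymes, rose by 2.34 ± 0.33 (adjusted p = 0.000342), and its later difference was -0.48 ± 0.16 (adjusted p = 0.0662). MSRB7 fell by 3.0 ± 0.42 (adjusted p = 0.000338) between 12 and 15 DAP.

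**Figure D4:**
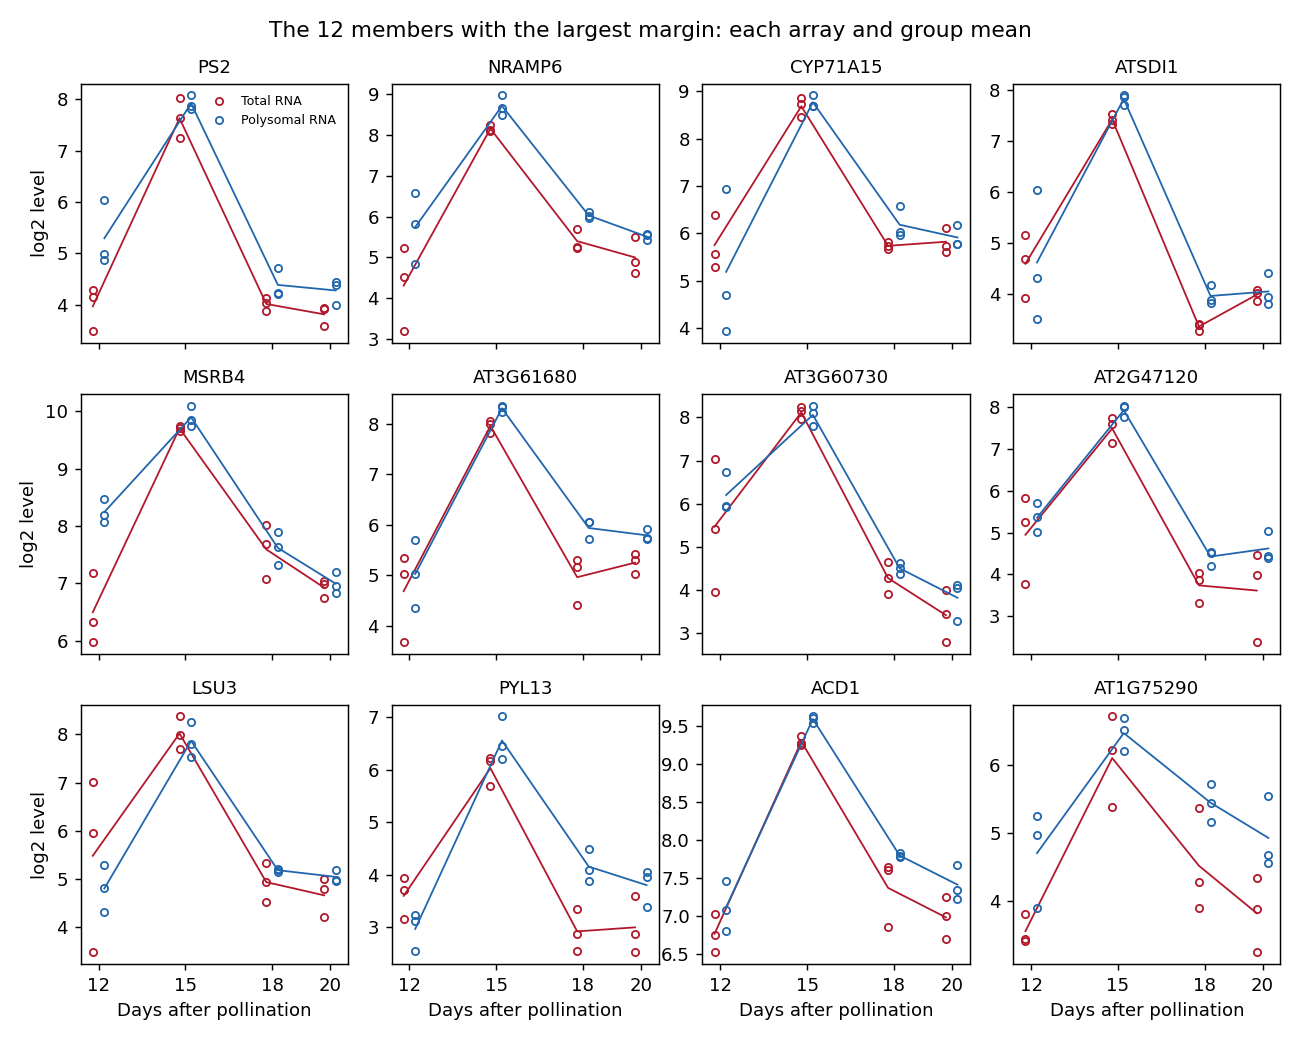
log2 level on each array (open circles) against days after pollination for the 12 members with the largest margin, with lines through the means of 3 arrays, total RNA in red and polysomal RNA in blue. The vertical axes differ between panels, and every panel has its highest mean at 15 DAP in both fractions, as for PS2 at 7.63 in total and 7.92 in polysomal RNA.

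Pigment and light genes were represented by ACD1, ELIP1 and HBP1. ACD1, or pheophorbide a oxygenase, opens the ring of chlorophyll during its breakdown. ACD1 read 6.75, 6.52 and 7.03 at 12 DAP, 9.25, 9.37 and 9.28 at 15, 7.65, 7.61 and 6.86 at 18 and 7.25, 7.0 and 6.71 at 20 in total RNA and 7.47, 7.09 and 6.80 at 12 DAP, 9.54, 9.61 and 9.63 at 15, 7.77, 7.84 and 7.79 at 18 and 7.34, 7.23 and 7.68 at 20 on polysomes. Arrays of 15 DAP were above all others in both fractions. Its polysomal rise was 2.48 ± 0.31 (adjusted p = 0.000198) and its fall -2.18 ± 0.20 (adjusted p = 2.68e-06). ELIP1, an early light-induced protein that binds pigments, rose by 2.02 ± 0.30 (adjusted p = 0.000472) and fell by 0.91 ± 0.20 (adjusted p = 0.00693) afterwards. HBP1, a haem-binding protein, rose by 0.80 ± 0.30 (adjusted p = 0.0358) and fell by 1.0 ± 0.13 (adjusted p = 8.61e-05). The 3 rises were not called after quantile normalization or cyclic loess, where the median of the group was 0.82 and -0.25 and where, under cyclic loess, 1 of the 3 was called lower, while the 3 falls were called under every scaling tried. On the deposited values 89.5% of all members rose and 90.8% fell in these steps. Of the bright loci 81% rose and 13% fell, and of all loci 29.4% and 5.4%.

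Sugar metabolism was represented by STS and TPPJ. STS, an enzyme of the raffinose family of seed sugars, read 4.70, 3.54 and 4.47 at 12 DAP, 6.67, 6.52 and 6.71 at 15, 5.24, 5.23 and 4.86 at 18 and 5.04, 5.57 and 5.09 at 20 in total RNA and 3.71, 4.11 and 3.82 at 12 DAP, 7.62, 7.32 and 7.09 at 15, 6.23, 6.09 and 6.11 at 18 and 5.91, 6.24 and 6.02 at 20 on polysomes. The 15 DAP arrays were highest in each fraction, and the polysomal arrays of 15 to 20 DAP lay above the total RNA arrays of the same stage. STS rose by 3.47 ± 0.31 (adjusted p = 4.25e-05) and fell by 1.29 ± 0.18 (adjusted p = 0.000184) on polysomes. TPPJ, a trehalose-phosphate phosphatase, rose by 3.89 ± 0.43 (adjusted p = 0.000109) and then fell by 1.17 ± 0.19 (adjusted p = 0.000677). Both rises and both falls were called under the 3 other scalings as well, although TPPJ, with a margin of 1.06 in total RNA, met the rule under none of them. With the deposited values 89.5% of all members rose and 90.8% fell in these steps. Of the bright loci 81% rose and 13% fell, and of all loci 29.4% and 5.4%.

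Cell wall and surface genes formed a group of 7, BGAL3, CWLP, CSLC5, XTH11, SKS6, XYP1 and PDF1. On polysomes 6 of the 7 rose from 12 to 15 DAP and 7 of 7 fell from 15 to 20 DAP. Among all members 89.5% rose and 90.8% fell in these steps. Of the bright loci 81% rose and 13% fell, and of all loci 29.4% and 5.4%. The rises dropped to 2 after quantile normalization, with 1 fall, and to 1 after cyclic loess, with 2 falls, and the 7 falls to 20 DAP were called under each scaling. BGAL3, a cell wall beta-galactosidase, read 6.79, 6.21 and 6.28 at 12 DAP, 9.43, 9.26 and 9.39 at 15, 7.47, 7.44 and 7.32 at 18 and 7.09, 7.18 and 7.27 at 20 in total RNA and 6.50, 7.36 and 7.01 at 12 DAP, 9.39, 9.46 and 9.47 at 15, 7.95, 8.03 and 8.15 at 18 and 7.63, 7.21 and 7.68 at 20 on polysomes. Replicates of 15 DAP differed little and lay above all other arrays in both fractions. BGAL3 rose by 2.48 ± 0.33 (adjusted p = 0.000252) and fell by 1.93 ± 0.14 (adjusted p = 3.05e-07). CSLC5, of the family that makes the xyloglucan backbone, rose by 3.40 ± 0.47 (adjusted p = 0.000327), and XTH11, of the family that cuts and joins xyloglucan, rose by 1.46 ± 0.33 (adjusted p = 0.00381). CWLP, a cell wall-plasma membrane linker protein, fell by 2.59 ± 0.33 (adjusted p = 7.81e-05) from 15 to 20 DAP. XYP1, a xylogen protein of the wall, was among the 8 members with the highest signal, and its polysomal rise of 0.92 ± 0.29 (adjusted p = 0.0179) turned to -1.36 under cyclic loess.

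PDF1 is a gene of the outer cell layer. Its total RNA levels were 8.23, 7.35 and 7.32 at 12 DAP, 9.20, 9.17 and 9.04 at 15, 5.89, 5.35 and 5.57 at 18 and 5.38, 5.53 and 5.40 at 20, and on polysomes 9.31, 9.48 and 9.41 at 12 DAP, 9.17, 9.26 and 9.10 at 15, 5.29, 5.47 and 5.39 at 18 and 5.63, 5.67 and 5.32 at 20. In total RNA all 15 DAP arrays lay above all 12 DAP arrays, whereas on polysomes all 12 DAP arrays lay slightly above all 15 DAP arrays. The polysomal difference from 12 to 15 DAP was -0.22 ± 0.29 (adjusted p = 0.494), against 1.5 in total RNA, and the difference between the fractions was not tested, since the rule used the total RNA arrays. The polysomal difference was -1.26 after quantile normalization, -2.32 after cyclic loess and 0.31 after median centring. The fall from 15 to 20 DAP on polysomes was -3.64 ± 0.15 (adjusted p = 5.72e-10). PDF1 was the only member on a list of 6 epidermis genes, of which 1 rose and 2 fell on polysomes from 12 to 15 DAP and 3 fell from 15 to 20 DAP. Over all loci 29.4% rose and 39.4% fell in the earlier step, and 5.4% fell in the later. In the earlier step 3 of the 6 fell after quantile normalization and 5 after cyclic loess. The list's mean level lay between 7.37 and 8.22 on the arrays of 12 and 15 DAP and between 6.27 and 6.66 on those of 18 and 20 DAP. Whether a change in that tissue's share bears on PDF1 was not tested.

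A group of 11 transcription factors was put together by role after the values were seen, with PYE of the nutrient group among them. A match on gene symbols and synonyms found 4 of the members, WRKY22, HSF1, GBF3 and STZ (2.61%), and 759 of all loci (2.74%). That match missed others of the 11, so its shares do not compare the full numbers of transcription factors. On polysomes 9 of the 11 (81.8%) rose from 12 to 15 DAP, against 81% of the bright loci and 89.5% of all members. From 15 to 20 DAP 10 (90.9%) fell, against 13% of the bright loci and 90.8% of all members, and 8 met the peak rule on polysomes. The rises dropped to 4 after quantile normalization and 5 after cyclic loess, with 1 fall each, and 10 falls to 20 DAP were called under each scaling. STZ, a zinc finger repressor of stress responses, was among the 8 members with the highest signal at 15 DAP, and its arrays read 8.03, 6.56 and 7.84 at 12 DAP, 10.20, 10.32 and 10.18 at 15, 9.31, 9.35 and 8.93 at 18 and 9.27, 9.02 and 9.02 at 20 in total RNA. On polysomes STZ levels were 5.42, 7.86 and 7.05 at 12 DAP, 10.16, 10.48 and 10.37 at 15, 9.60, 9.75 and 9.41 at 18 and 9.42, 9.68 and 9.29 at 20. All 15 DAP arrays were above the rest in each fraction, and the 12 DAP polysomal arrays spread from 5.42 to 7.86. Its polysomal rise was 3.56 ± 0.54 (adjusted p = 0.000547) and its fall -0.87 ± 0.16 (adjusted p = 0.00194). GBF3, a bZIP factor of the G-box binding group, rose by 2.96 ± 0.30 (adjusted p = 7.75e-05) and fell by 1.26 ± 0.16 (adjusted p = 7.47e-05). IAA34, of the Aux/IAA family of auxin repressors, rose by 2.05 ± 0.37 (adjusted p = 0.00125) and fell by 2.29 ± 0.26 (adjusted p = 2.2e-05). RAP2.6, an ethylene response factor, rose by 2.88 ± 0.37 (adjusted p = 0.000225) and fell by 2.03 ± 0.15 (adjusted p = 3.49e-07).

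WRKY22, a WRKY factor of defence responses, rose by 3.12 ± 0.49 (adjusted p = 0.000615) and fell by 1.25 ± 0.18 (adjusted p = 0.000193). PIL2, a bHLH factor of the phytochrome-interacting family, rose by 3.70 ± 0.28 (adjusted p = 2.32e-05) and fell by 1.38 ± 0.17 (adjusted p = 4.42e-05). GRF7, a growth-regulating factor, rose by 2.47 ± 0.41 (adjusted p = 0.000816) and fell by 1.52 ± 0.21 (adjusted p = 0.000181). AFO, a YABBY factor of lateral organ polarity, read 6.53, 4.44 and 4.41 at 12 DAP, 5.92, 6.76 and 6.09 at 15, 5.17, 4.73 and 5.05 at 18 and 5.49, 4.44 and 5.54 at 20 in total RNA and 5.81, 7.42 and 6.64 at 12 DAP, 6.11, 6.45 and 6.40 at 15, 4.81, 4.67 and 4.70 at 18 and 4.67, 5.03 and 4.63 at 20 on polysomes. Its arrays of 12 and 15 DAP overlapped in both fractions. The polysomal difference was -0.30 ± 0.42 (adjusted p = 0.522), and the later fall -1.55 ± 0.27 (adjusted p = 0.00114) passed. HSF1, a heat shock factor, passed neither step, with 0.85 ± 0.55 (adjusted p = 0.186) and -0.54 ± 0.24 (adjusted p = 0.182).

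A group of 8 members that act on chromosomes or in the nucleus was put together by role after the values were seen, and not as a full set. They were the SMC protein TTN8, the chromatin protein DEK3 (AT4G26630), the nuclear lamina protein LINC3, MBD11 and MBD7 of the methyl-CpG-binding family, NERD of RNA-directed DNA methylation, the ISWI remodeller CHR11 and the Mediator subunit MED9. On polysomes 8 of 8 rose from 12 to 15 DAP, 7 of 8 fell from 15 to 20 DAP and 5 met the peak rule. Among all members 89.5% rose, 90.8% fell and 60.1% met that rule on polysomes. Of the bright loci 81% rose and 13% fell, and of all loci 29.4% and 5.4%. The rises dropped to 3 after quantile normalization and 4 after cyclic loess, with none below 0. CHR11 read 5.63, 5.56 and 6.01 at 12 DAP, 8.64, 8.45 and 8.57 at 15, 7.80, 8.01 and 6.96 at 18 and 7.63, 7.34 and 7.46 at 20 in total RNA and 4.16, 3.64 and 5.90 at 12 DAP, 9.16, 9.23 and 9.27 at 15, 8.53, 8.43 and 8.88 at 18 and 8.48, 8.12 and 8.59 at 20 on polysomes. Its 15 DAP arrays lay above all others in each fraction, and its polysomal levels of 15 to 20 DAP lay above the total RNA levels of the same stage. CHR11 rose by 4.65 ± 0.52 (adjusted p = 0.000119), among the 6 largest called rises, and fell by 0.82 ± 0.22 (adjusted p = 0.0222). TTN8 rose by 2.25 ± 0.34 (adjusted p = 0.0005) and fell by 1.05 ± 0.27 (adjusted p = 0.016). AT4G26630 rose by 2.47 ± 0.42 (adjusted p = 0.000989) and fell by 1.20 ± 0.19 (adjusted p = 0.000583). MED9 was the exception after 15 DAP, with -0.74 ± 0.24 (adjusted p = 0.0585).

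In total RNA these nuclear genes were lower at 20 than at 18 DAP, with a median of -0.46, while on polysomes their median was -0.003. Of the 19 members lower by more than 0.5 from 18 to 20 DAP in total RNA, 2 belong to the group. The median of the 19 was -0.66 in total RNA, which chose them, and -0.10 on polysomes, where 6 were lower by more than 0.5 and 8 had the higher mean at 20 DAP. Over all members the median from 18 to 20 DAP was -0.18 in total and -0.06 in polysomal RNA. The rule used the 20 DAP arrays of total RNA to choose all members, the nuclear genes among them, so the total RNA side is not free of that choice. This contrast between fractions was not tested.

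Ubiquitin and chaperone genes made up 4 members. PUB9, of the U-box E3 ligases, rose by 3.43 ± 0.34 (adjusted p = 6.93e-05) on polysomes and fell by 1.73 ± 0.16 (adjusted p = 2.64e-06) from 15 to 20 DAP. BRG3, of another E3 ligase family, rose by 3.90 ± 0.40 (adjusted p = 8.11e-05) and fell by 1.16 ± 0.15 (adjusted p = 6.67e-05). BAG6, a co-chaperone, rose by 3.78 ± 0.37 (adjusted p = 6.62e-05) and fell by 1.31 ± 0.20 (adjusted p = 0.00045). UBC16, a ubiquitin-conjugating enzyme, did not pass in the step up, with 1.0 ± 0.48 (adjusted p = 0.0857). Its 12 DAP polysomal array of replicate 1 read 9.01, above the 15 DAP arrays, and the other two 7.13 and 7.31. Organelle genes were PEX19-1, a peroxisome biogenesis factor, TOC132, a plastid import receptor, and COX17, a copper chaperone of mitochondria. All 3 rose on polysomes from 12 to 15 DAP, as did 89.5% of all members and 81% of the bright loci. From 15 to 20 DAP PEX19-1 alone fell, at -1.71 ± 0.20 (adjusted p = 2.85e-05), where 90.8% of all members and 13% of the bright loci fell. TOC132 had a difference of -0.44 ± 0.21 (adjusted p = 0.222) and COX17 of -0.50 ± 0.22 (adjusted p = 0.16). COX17 read 4.62, 4.38 and 4.91 at 12 DAP, 6.32, 6.75 and 6.87 at 15, 6.45, 6.26 and 6.18 at 18 and 6.14, 5.91 and 6.38 at 20 on polysomes, with overlap of its 15 DAP arrays with those of 18 and 20 DAP, and 5.49, 6.09 and 5.54 at 12 DAP, 6.98, 7.07 and 7.09 at 15, 5.73, 6.06 and 5.11 at 18 and 6.03, 5.79 and 5.69 at 20 in total RNA, without such overlap.

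Specialised and defence metabolism held 9 members, of which 7 rose and 9 fell in the polysomal steps and 4 met the peak rule. Among all members 89.5% rose, 90.8% fell and 60.1% met that rule on polysomes. Of the bright loci 81% rose and 13% fell, and of all loci 29.4% and 5.4%. The rises dropped to 1 after quantile normalization and 0 after cyclic loess, with 1 and 2 falls, and the 9 falls to 20 DAP were called under each. CYP71A15, a cytochrome P450, had the third margin in size, 2.86. Its levels were 6.39, 5.57 and 5.30 at 12 DAP, 8.87, 8.74 and 8.45 at 15, 5.73, 5.66 and 5.82 at 18 and 5.74, 5.61 and 6.12 at 20 in total RNA and 4.69, 3.93 and 6.94 at 12 DAP, 8.70, 8.92 and 8.70 at 15, 6.02, 5.96 and 6.57 at 18 and 5.77, 6.18 and 5.78 at 20 on polysomes. The 15 DAP arrays lay above all others, and the polysomal 12 DAP arrays ran from 3.93 to 6.94. CYP71A15 rose by 3.59 ± 0.65 (adjusted p = 0.00125) and fell by 2.86 ± 0.19 (adjusted p = 1.14e-07). EDS16, the isochorismate synthase of salicylic acid synthesis, rose by 1.93 ± 0.30 (adjusted p = 0.000575) and fell by 1.14 ± 0.20 (adjusted p = 0.00126). ADC2, an arginine decarboxylase of polyamine synthesis, rose by 2.76 ± 0.46 (adjusted p = 0.000853) and fell by 1.34 ± 0.22 (adjusted p = 0.000748). ST2A, a sulfotransferase of jasmonate metabolism, rose by 3.41 ± 0.37 (adjusted p = 0.0001) and fell by 1.06 ± 0.16 (adjusted p = 0.000447). ACAT2, an acetyl-CoA C-acetyltransferase, did not pass in the step up, with 0.18 ± 0.31 (adjusted p = 0.622), and read -1.17 after quantile normalization and -1.85 after cyclic loess.

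AT1G78500, or PEN6, of the pentacyclic triterpene synthases, read 6.24, 6.70 and 5.74 at 12 DAP, 7.52, 7.80 and 7.63 at 15, 6.35, 6.09 and 6.64 at 18 and 5.32, 4.85 and 5.78 at 20 in total RNA and 7.44, 8.21 and 6.86 at 12 DAP, 8.05, 7.76 and 8.10 at 15, 4.53, 4.44 and 4.45 at 18 and 4.55, 2.71 and 4.61 at 20 on polysomes. On polysomes its arrays of 12 and 15 DAP overlapped, and those of 18 and 20 DAP lay far below. The step up was 0.47 ± 0.39 (adjusted p = 0.291), which turned to -1.26 under cyclic loess, and the fall -4.01 ± 0.37 (adjusted p = 3.01e-06). In total RNA the mean differed by -1.29 from 15 to 18 DAP, against -3.50 on polysomes. At 18 DAP the polysomal level minus the total RNA level was -1.88 ± 0.37 (adjusted p = 0.00259), the largest such difference of the members.

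At 18 DAP the arrays of neither fraction had been used to choose the members, so polysomal and total RNA were compared. The rule did ask for a low 20 DAP level in total RNA, and 130 members had 18 and 20 DAP within 0.5 there. The comparison is therefore not wholly free of that choice. A total of 25 members were higher in polysomal than in total RNA, 16.3% of the members against 13.5% of all loci and 19.5% of the bright loci. A total of 3 were lower, 1.96% against 11.3% and 5.78%, and these were AT1G78500, AT1G08340 and AT2G23120. The median difference was 0.21 in the members, 0.22 in the bright loci and 0.04 over all loci, and on the deposited values the share of members higher on polysomes lay between both backgrounds. The count of 25 was 9 after quantile normalization (5.88% of the members against 7.02% of the bright loci), 8 after cyclic loess (5.23% against 4.72%), 47 after median centring (30.7% against 34.1%) and 4 with all 24 arrays in the fit. It was 14 without polysomal replicate 1, 15 without polysomal replicate 3 and 15 without total RNA replicate 3. The count of 3 was 10 after quantile normalization (6.54% against 7.91%), 12 after cyclic loess (7.84% against 9.41%) and 5 with the replicate number as a block. The highest differences were those of SKS6, a SKU5-like surface protein, with 1.31 ± 0.22 (adjusted p = 0.00114), PYL13 with 1.23 ± 0.30 (adjusted p = 0.00892), STS with 1.03 ± 0.18 (adjusted p = 0.00125) and AT1G33700 with 1.03 ± 0.18 (adjusted p = 0.00141). SKS6 arrays of 18 DAP read 3.82, 4.50 and 3.72 in total and 5.29, 5.41 and 5.26 in polysomal RNA, without overlap.

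AT1G03890, on the storage protein list, had the highest signal of the members at 15 DAP, and its arrays read 9.82, 9.67 and 9.51 at 12 DAP, 11.23, 11.21 and 11.28 at 15, 9.67, 9.49 and 9.32 at 18 and 9.48, 9.26 and 9.30 at 20 in total RNA. On polysomes AT1G03890 read 10.35, 10.05 and 10.21 at 12 DAP, 11.00, 11.15 and 10.99 at 15, 9.53, 9.38 and 9.65 at 18 and 9.24, 9.25 and 9.43 at 20. Both fractions had their highest arrays at 15 DAP, with 18 and 20 DAP below 12 DAP on polysomes. Its polysomal rise was 0.84 ± 0.29 (adjusted p = 0.0266), which turned to -1.42 under cyclic loess and had an adjusted p of 0.0642 with the replicate number as a block, and its fall was -1.74 ± 0.14 (adjusted p = 7.18e-07). It was the only member among 13 storage protein loci, of which 6 rose from 12 to 15 DAP and 6 fell from 15 to 20 DAP on polysomes, with medians of 0.42 and -0.31. Of all loci 29.4% rose and 5.4% fell in these steps, and of the bright loci 81% and 13%. Under cyclic loess 8 of the 13 fell between 12 and 15 DAP.

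ATS3, an embryo-specific gene, read 9.54, 9.26 and 9.25 at 12 DAP, 10.27, 10.44 and 10.54 at 15, 7.35, 7.32 and 7.30 at 18 and 7.17, 7.23 and 7.09 at 20 in total RNA, so that the 18 and 20 DAP arrays lay well below those of 12 DAP. On polysomes the ATS3 difference from 12 to 15 DAP was 0.60 ± 0.29 (adjusted p = 0.093), or -1.68 under cyclic loess, and ATS3 fell by 3.0 ± 0.13 (adjusted p = 5.72e-10) afterwards. The locus with the deepest descent, AT5G55620, was at 7.30, 8.47, 3.70 and 3.44 in mean total RNA level over the 4 stages, and on polysomes it fell by 5.14 ± 0.31 (adjusted p = 3.73e-08). It was named after its values were seen. AT1G70680 had the lowest polysomal step from 12 to 15 DAP, -0.47 ± 0.53 (adjusted p = 0.44), and its 12 DAP arrays ran from 4.59 to 7.24 in total RNA and from 6.13 to 8.30 on polysomes, overlapping those of 15 DAP. Its fall to 20 DAP was -4.08 ± 0.37 (adjusted p = 2.59e-06). AT3G60730 had a difference of -2.05 between 20 and 12 DAP in total RNA, with polysomal steps of 1.85 ± 0.34 (adjusted p = 0.00141) and -4.23 ± 0.28 (adjusted p = 9.87e-08).

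The largest called rises on polysomes belonged to AT1G27030, with 4.71 ± 0.52 (adjusted p = 0.000107), AT1G07400, with 4.66 ± 0.31 (adjusted p = 1.8e-05), CHR11, AT1G02660, with 4.52 ± 0.30 (adjusted p = 1.76e-05), AT2G18570, with 4.49 ± 0.45 (adjusted p = 7.26e-05), and AT3G29260, with 4.46 ± 0.29 (adjusted p = 1.7e-05). AT1G27030 read 2.82, 2.52 and 2.76 at 12 DAP, 8.40, 8.25 and 8.07 at 15, 6.80, 6.69 and 6.57 at 18 and 7.10, 7.01 and 6.92 at 20 in total RNA, the widest step of the members there. All of its 15 to 20 DAP arrays lay well above those of 12 DAP. AT1G07400 is on the heat shock list of 16 loci, of which 13 rose and 1 fell from 12 to 15 DAP and 1 rose and 5 fell from 15 to 20 DAP on polysomes. The list's share that rose, 81.2%, was close to the 81% of the bright loci, where 29.4% of all loci rose. From 15 to 20 DAP 5.4% of all loci and 13% of the bright loci fell. AT1G07400 was the only member of that list, and its fall was -1.01 ± 0.16 (adjusted p = 0.000431). AT3G61680 had polysomal steps of 3.29 ± 0.38 (adjusted p = 0.00013) and -2.52 ± 0.20 (adjusted p = 7.87e-07), AT2G47120 of 2.57 ± 0.32 (adjusted p = 0.00018) and -3.31 ± 0.38 (adjusted p = 2.85e-05), and AT1G75290 of 1.77 ± 0.40 (adjusted p = 0.00382) and -1.54 ± 0.40 (adjusted p = 0.0173). Among the smallest steps up were AT1G62620, with 0.09 ± 0.49 (adjusted p = 0.87), and AT4G31354, with 0.19 ± 0.36 (adjusted p = 0.64). AT3G02480, AT1G32710 and AT4G35160 were among the brightest members, and their falls were -1.72 ± 0.14 (adjusted p = 8.27e-07), -1.22 ± 0.16 (adjusted p = 7.81e-05) and -1.22 ± 0.14 (adjusted p = 3.42e-05). AT3G02480 did not pass in the step up, with 0.23 ± 0.29 (adjusted p = 0.485) as deposited and -2.05 under cyclic loess.

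Lists of classic maturation genes were set against the members, which were 0.552% of the loci outside the organelle genomes. Of 16 maturation transcription factors, 34 LEA proteins and dehydrins, 8 oil body proteins, 21 genes of fatty acid and oil synthesis and 32 carriers of sugars and amino acids, 0 were members. Of 37 dormancy and hormone genes DOG1 was the only member. These counts cover the listed loci alone, and the lists may not hold every gene of their kind. On polysomes 27 of the 34 LEA and dehydrin loci rose and 5 fell from 12 to 15 DAP, while 2 rose and 7 fell from 15 to 20 DAP. The medians were 2.28, or 0.09 under cyclic loess, and -0.23. Their share that rose, 79.4%, lay just under the 81% of the bright loci and above the 29.4% of all loci. Of the maturation transcription factors 9 rose (56.2%) and 4 fell in the step up, or 4 and 3 after quantile normalization and after cyclic loess. A total of 9 fell in the step down, where 5.4% of all loci and 13% of the bright loci did. Markers of the seed coat, the endosperm and the fruit wall were followed as well. Of 16 mucilage and 17 flavonoid genes of the seed coat, 11 and 12 fell from 12 to 15 DAP on polysomes, where 39.4% of all loci fell, and 3 of the flavonoid genes fell afterwards. The falls in the step up were 10 and 8 after quantile normalization and 11 and 9 after cyclic loess. Of 12 endosperm genes 9 fell and 2 rose in the step up and 2 fell afterwards, and of 5 silique valve genes 5 and then 1 fell. After quantile normalization 5 endosperm and 2 valve genes fell from 12 to 15 DAP, after cyclic loess 5 and 1, and the rises of endosperm genes were not called after either. The mean endosperm level was 5.0 to 5.57 on the arrays of 12 DAP and 3.25 to 4.0 on the later ones. The part of these tissues in the members' course was not tested.

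Membership at the edge of the rule was set by small amounts. The members with the smallest margins were ELF5A-3, AT3G11450 and AT1G55460, at 1.003, 1.002 and 1.001, and the loci just outside were TOP1ALPHA, AFP2 and APR2, at 0.999, 0.997 and 0.994. SBP2, AT5G63130 and ARF11 met both margins at 15 DAP levels of 5.99, 5.93 and 5.83, as did 69 loci in all below the level of 6. The limit towards 20 DAP was met by 153 of the 153 members after quantile normalization and after cyclic loess. The limit towards 12 DAP was met by 117 and 88, and 75 members met the whole rule under all 3 other scalings, while 7 met it under none. Whichever total RNA array was left out, 99 members stayed in. PS2, NRAMP6, CYP71A15, ATSDI1, MSRB4, LSU3, DOG1, AFP1 and STS were kept under each of these scalings and omissions.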

How the data were processed

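Seeds of Arabidopsis thaliana Col-0 were measured on 24 biotin-labelled arrays, 3 for each of 8 groups of RNA fraction and stage. The deposited values are log2 levels made by the authors with RMA, per the submitters' processing notes. The array design and genome build are not given in the sources used here, so no coordinates are printed. Arrays give no count depth, and their number limits the precision.

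Samples were grouped by their labelled RNA type and stage. Moderated tests used R 4.3.3 and limma 3.58.1 on the deposited log2 values of all 27827 loci, two-sided, with Benjamini-Hochberg adjustment over all loci and a threshold of 0.05. The 15 against 12 DAP test used the 6 polysomal arrays compared (4 residual degrees of freedom). The other tests used the 18 arrays of 15 to 20 DAP (12 degrees of freedom). Comparisons that share total RNA arrays with the rule were described without a test. The steps were tested on simulated data.

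Alternatives were 3 other scalings, all 24 arrays in a single fit, a replicate block, array weights, no dim loci (under the 25th percentile), other margins, and each array left out in turn. Members, lists and tests were chosen with earlier results of these data known. The genes named were those with the 12 largest margins, the 8 highest signals, all members of the lists of known genes, the 6 largest called and 6 lowest polysomal steps up, up to 4 called differences each way between fractions at 18 DAP, the 3 loci on each side of the margin, and up to 3 per gene family. Other members were named by role after their values were seen. Promoter motifs were planned but not analysed here.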

Additional observations from a re-analysis of the deposited data

Results flagged for a closer look

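PDF1, a gene of the outer cell layer, had differences of opposite sign in the fractions between 12 and 15 DAP on the deposited values. The polysomal difference was -0.22 log2 units, did not pass limma's test (adjusted p = 0.494) and was 0.31 after median centring, while the total RNA difference was 1.5, with all 15 DAP total RNA arrays above those of 12 DAP. The polysomal arrays read 9.31, 9.48 and 9.41 at 12 DAP and 9.17, 9.26 and 9.10 at 15 DAP. All 3 polysomal arrays of 12 DAP thus read above all 3 of 15 DAP. The difference between the fractions was not tested, because the total RNA arrays chose the members. PDF1 met the rule on deposited and on median-centred values and not after quantile normalization or cyclic loess.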

How the results depend on the processing

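The step up from 12 to 15 DAP depended on scaling. The 137 members called there became 60 after repeated quantile normalization and 61 under cyclic loess, and the cause was not tested. The step after quantile normalization turned to -0.066 for AT1G33700 and -1.17 for ACAT2. Under cyclic loess it turned to -1.42 for AT1G03890, -1.26 for AT1G78500, -2.05 for AT3G02480, -1.86 for APS1, -0.58 for MSRB4, -1.68 for ATS3, -1.85 for ACAT2 and -1.36 for XYP1. With all 24 arrays in a single fit, which shares the larger spread of the 12 DAP arrays, the 139 falls to 20 DAP became 88 and the 137 falls to 18 DAP became 76. The 25 members higher on polysomes at 18 DAP became 9 under quantile normalization, 8 under cyclic loess, 47 under median centring and 4 with all arrays, and the 3 lower ones became 10 under quantile normalization and 12 under cyclic loess. Of 90 polysomal steps of named genes, 68 kept their direction and side of the threshold under cyclic loess (11 weaker, 3 stronger and 8 reversed), 71 after quantile normalization (14, 3 and 2), 76 with all arrays in a single fit, 88 with array weights, 85 with median centring and 90 without the dimmest loci. At a margin of 1.5 the 153 loci became 45, and the 92 members with a polysomal peak became 58 under cyclic loess. No other alternative moved these counts by more than 1.5 times, except the omissions of arrays and the block given next.

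Leaving out each array in turn gave 122 to 140 rises from 12 to 15 DAP, 121 to 134 falls to 20 DAP, 116 to 130 falls to 18 DAP, 14 to 33 members higher and 2 to 4 lower on polysomes at 18 DAP, 146 to 169 loci under the rule and 84 to 102 members with a polysomal peak. With the replicate number as a block, the counts were 135, 139 and 138 for the steps, 27 for members higher and 5 for members lower on polysomes. The block ended no other call among the named genes than the rise of AT1G03890. The labels do not tie the array numbers to the blocks of the planting. Deviations of total and polysomal arrays of the same number and stage correlated at -0.02 to 0.02 across loci, and those of polysomal arrays of the same number at different stages at -0.06 to 0.22, so not every pair passed 0.1 and the numbers were not taken to pair the samples. The planned motif counts were not run. Arrays carry no detection calls, which limits what the lowest levels show.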
